A study of Mus musculus with 2 samples.

Results

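The genes described here are the 7 mouse genes of MHC class II antigen presentation named H2-Aa, H2-Ab1, H2-Eb1, H2-DMa, H2-DMb1, Cd74 and Ciita. They were chosen by symbol, whatever their level, from the 32285 genes of a droplet-based single-cell RNA-Seq experiment on hindlimb muscle, and all 7 were found. The mice were aged (24 months) female C57Bl/6J animals. In the ATRA+agonist group the muscles received 3 injections of all-trans retinoic acid (ATRA), CD3254, an agonist of the retinoid X receptor RXR-alpha, and BMS961, an agonist of the retinoic acid receptor RAR-gamma. In the DMSO vehicle group they received 3 injections of the solvent alone. A single library was made per group, from live-sorted single-cell suspensions in which 2 mice were combined. Whole muscle fibers were therefore not sampled, and the mice cannot be told apart.

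MHC class II molecules display peptides from endocytosed proteins to CD4+ T cells, and are made mainly by dendritic cells, B cells and macrophages. An alpha and a beta chain pair in the endoplasmic reticulum, are guided to endosomes by the invariant chain, and there exchange a remnant of that chain for a peptide with the help of the H2-DM dimer. Transcription of the whole set depends on the coactivator Ciita, which interferon-gamma can induce in other cells, including those of blood vessels.

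H2-Aa and H2-Ab1 encode the alpha and the beta chain of I-A, and lie at chr17:34282744-34287823 on the minus strand and chr17:34257689-34269419 on the plus strand of GRCm38. H2-Eb1 (chr17:34305867-34316674, plus strand) encodes the beta chain of I-E, whose alpha chain is not functional in this strain. H2-DMa (chr17:34119541-34139101) and H2-DMb1 (chr17:34153072-34160230), both on the plus strand, encode the chains of the peptide editor H2-DM. Cd74 encodes the invariant chain, and Ciita (chr16:10480059-10528418, plus strand) the transactivator. In the annotation H2-Eb1 overlaps Gm20513, H2-DMa overlaps Brd2, Gm20493 and CR974462.4 and Ciita overlaps Dexi, each on the other strand. H2-DMa also overlaps CR974462.3 on its own strand, and Cd74 overlaps Mir5107. The use of strand in the counting is not given in the sources used here, and whether reads of these partners were counted for the genes was not tested.

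Promoters are shown because the genes differed together between the libraries in endothelial-like cells, and because class II promoters carry an X box followed by a Y box, bound by RFX and NF-Y factors, on which Ciita acts. The stretches below come from the RefSeq promoter windows (GRCm38.p6, 250 bases before to 50 after the start) and are written 5′ to 3′ on the strand of the gene, with capitals for a match to CTNGNAACT, letters of the X box, and to TGATTGG, letters of the Y box. These letters were chosen after the promoters had been seen, so the matches are a description.

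H2-Aa: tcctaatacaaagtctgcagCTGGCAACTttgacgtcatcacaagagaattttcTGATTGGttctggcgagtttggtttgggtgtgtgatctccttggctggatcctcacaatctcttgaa
H2-Eb1: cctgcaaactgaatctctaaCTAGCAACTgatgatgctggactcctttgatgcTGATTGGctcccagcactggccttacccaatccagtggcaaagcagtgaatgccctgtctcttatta
H2-DMb1: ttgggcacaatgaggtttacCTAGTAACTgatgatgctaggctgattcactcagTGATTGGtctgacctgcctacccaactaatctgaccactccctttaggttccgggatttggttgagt

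They lie at chr17:34287807-34287927 (minus strand) for H2-Aa, chr17:34305753-34305872 (plus strand) for H2-Eb1 and chr17:34153074-34153194 (plus strand) for H2-DMb1. The X match began 34, 33 and 34 bases before the Y match. Of 32851 promoter windows searched on both strands, 1347 (4.10%) held the X letters and 2568 (7.82%) the Y letters. An X match up to 40 bases before a Y match on the strand of the gene was found in 5 windows (0.0152%), which were those of H2-Aa, H2-Eb1, H2-DMb1, BC051142 and 1700048F04Rik. Both windows of H2-DMa held neither, and those of the related genes H2-DMb2, H2-Eb2, H2-Oa and H2-Ob held the Y letters only. H2-Ab1, Cd74 and Ciita were not among the windows searched.

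The ATRA+agonist matrix held 65197625 UMIs in 10444 barcodes, and the DMSO vehicle matrix 109343486 UMIs in 17394 barcodes. After filtering, 6907 and 6953 cells were kept, with medians of 4683 and 4849 UMIs per cell. The libraries shared 43 barcodes, of which 9 were kept in both, and leaving out the shared barcodes changed none of the 6 cell class ratios below by more than its counting interval. Cell classes were rebuilt from marker genes, none of them a class II gene, and carry the ending "-like". As each group is a single library, differences have no replicate check and no test was run. Levels are in CPM, UMIs of a gene per 1000000 UMIs of the class, with exact 95% Poisson intervals. A ratio divides the ATRA+agonist level by the DMSO vehicle level. All intervals cover counting error only, not differences between mice. Those of levels and ratios take UMIs as independent and leave out the spread between cells. A single cell with many UMIs can therefore move a value beyond its interval. Where 2 values follow each other without a library name, ATRA+agonist comes first.

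Over all kept cells the 7 genes were higher in the ATRA+agonist library, at 7860 CPM (327230 UMIs), than in the DMSO vehicle library, at 4684 CPM (190355 UMIs). The cell classes went different ways. Monocyte or macrophage-like cells held 62.8% of the class II UMIs of the ATRA+agonist library and 72.4% of those of the DMSO vehicle library, from 7.92% and 6.10% of the cells. B cell-like cells held 23.3% and 1.79%, and made up 9.29% and 0.892% of the cells. Dendritic-like cells held 11.7% and 12.6%. Endothelial-like cells, the most numerous class in both libraries, held 0.120% of the class II UMIs after ATRA+agonist and 3.97% after DMSO vehicle.

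**Figure D1:**
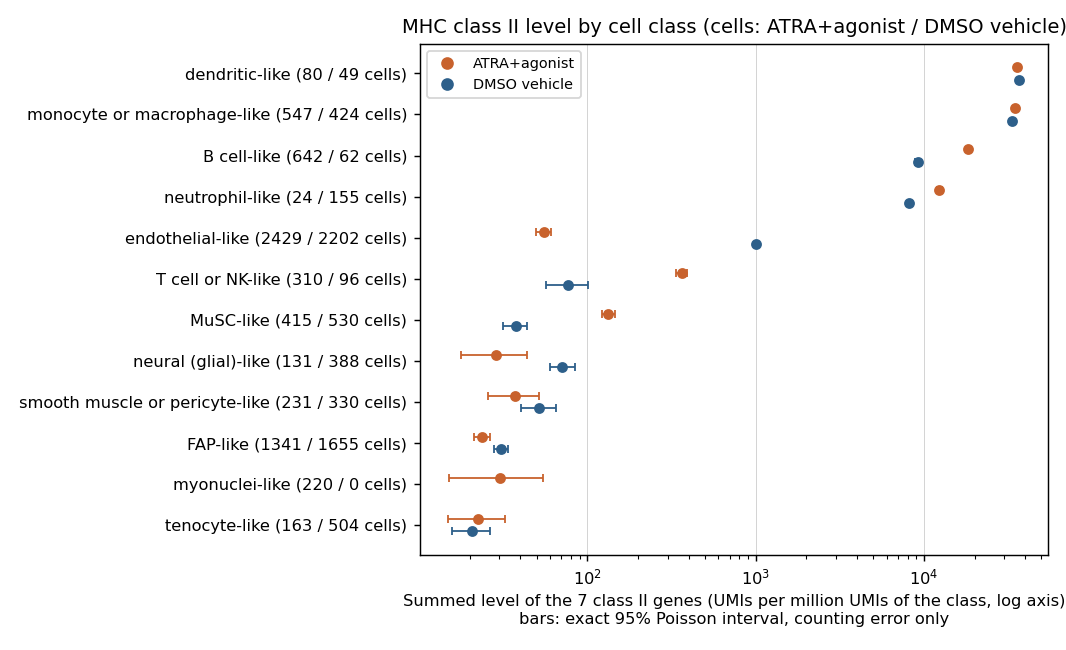
Summed level of the 7 genes in each cell class on a log axis (CPM), with 1 point per library and exact 95% Poisson intervals. Dendritic-like and monocyte or macrophage-like cells have the highest levels in both libraries, while endothelial-like cells lie at 55.1 CPM after ATRA+agonist and 1009 CPM after DMSO vehicle.

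In order of level, dendritic-like cells were at 35607 CPM (35251 to 35965) in the ATRA+agonist library and 36745 CPM (36281 to 37214) in the DMSO vehicle library. Monocyte or macrophage-like cells followed at 34838 CPM (34687 to 34988) and 33443 CPM (33267 to 33621), and B cell-like cells at 18358 CPM (18228 to 18489) and 9194 CPM (8888 to 9507). In the ATRA+agonist library the dendritic-like and macrophage-like levels were close, and B cell-like cells were well below both in either library. Neutrophil-like cells had 12387 CPM in 24 cells and 8169 CPM in 155 cells. That cluster was also led by the monocyte genes Ly6c2, Plac8 and Chil3.

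Among the non-immune classes, tenocyte-like cells were at 22.4 CPM (14.9 to 32.4) and 20.5 CPM (15.7 to 26.4), and fibro-adipogenic progenitor (FAP)-like cells at 23.6 CPM (21.1 to 26.3) and 30.5 CPM (27.7 to 33.6). Smooth muscle or pericyte-like cells had 37.2 CPM (25.7 to 51.9) and 51.7 CPM (40.2 to 65.4), from 34 and 69 UMIs. Neural (glial)-like cells had 28.5 CPM (17.6 to 43.6) and 71.1 CPM (59.8 to 83.9), but 86 of the 140 UMIs in the DMSO vehicle library came from 1 cell. Myonuclei-like barcodes, found only in the ATRA+agonist library, had 11 class II UMIs in 220 cells (30.3 CPM, 15.1 to 54.2). After ATRA+agonist the intervals of neighbouring classes in this order overlapped, while after DMSO vehicle the FAP-like interval lay above the tenocyte-like and below the smooth muscle or pericyte-like interval. However, 63 of the 420 FAP-like UMIs of the DMSO vehicle library came from 1 cell, and the order without that cell was not tested. Each cell was then thinned to 1000 UMIs. A UMI of any of the 7 genes was found in 2.69% of FAP-like cells (1.89% to 3.70%) after ATRA+agonist. After DMSO vehicle the share was 2.72% (1.99% to 3.62%). These shares serve below as a reference from a class with little class II RNA. Free RNA was not measured, so whether it accounts for them was not tested. The FAP-like medians before thinning were 9800 and 7994 UMIs per cell.

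The first comparison was within endothelial-like cells, which line the blood vessels and numbered 2429 after ATRA+agonist and 2202 after DMSO vehicle. All 7 genes were lower after ATRA+agonist, by 6.56-fold for H2-DMa and by between 14.97-fold and 21.99-fold for the other genes. Their sum was 55.1 CPM (49.8 to 60.8, 393 UMIs) after ATRA+agonist and 1009 CPM (987 to 1032, 7558 UMIs) after DMSO vehicle, an 18.3-fold difference (log2 ratio -4.20, -4.35 to -4.05). Of the 14351 genes with at least 10 UMIs in these cells, 3.6% were at least 2-fold lower after ATRA+agonist, and the median log2 ratio of all genes was 0.07. At a doublet rate of 15% the difference was 27.9-fold.

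The chains of I-A and I-E moved by similar amounts. H2-Aa had 6.59 CPM (4.84 to 8.76, 47 UMIs) after ATRA+agonist and 145 CPM (136 to 154, 1085 UMIs) after DMSO vehicle, a log2 ratio of -4.46 (-4.91 to -4.04). H2-Ab1, its partner chain, had 8.97 CPM (6.91 to 11.5) and 134 CPM (126 to 143), a log2 ratio of -3.90 (-4.29 to -3.54). H2-Eb1 had 8.41 CPM (6.42 to 10.8) and 128 CPM (120 to 136), a log2 ratio of -3.93 (-4.33 to -3.55). The intervals of H2-Ab1 and H2-Eb1 lay almost on each other, and that of H2-Aa overlapped both.

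Cd74, the invariant chain, had 24.7 CPM (21.2 to 28.6, 176 UMIs) after ATRA+agonist and 536 CPM (520 to 553, 4016 UMIs) after DMSO vehicle, a log2 ratio of -4.44 (-4.67 to -4.22). Of the peptide editor, H2-DMb1 had 1.26 CPM (0.577 to 2.40) and 25.5 CPM (22.02 to 29.4), a log2 ratio of -4.34 (-5.49 to -3.38). H2-DMa had 4.77 CPM (3.30 to 6.66) and 31.3 CPM (27.4 to 35.5). Its log2 ratio of -2.71 (-3.28 to -2.19) was the smallest of the 7, and its interval did not overlap those of the other genes except that of Ciita. Ciita, the transactivator, had 3 UMIs after ATRA+agonist (0.421 CPM, 0.0867 to 1.23) and 67 after DMSO vehicle (8.95 CPM, 6.93 to 11.4), a log2 ratio of -4.41 (-6.72 to -2.80).

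**Figure D2:**
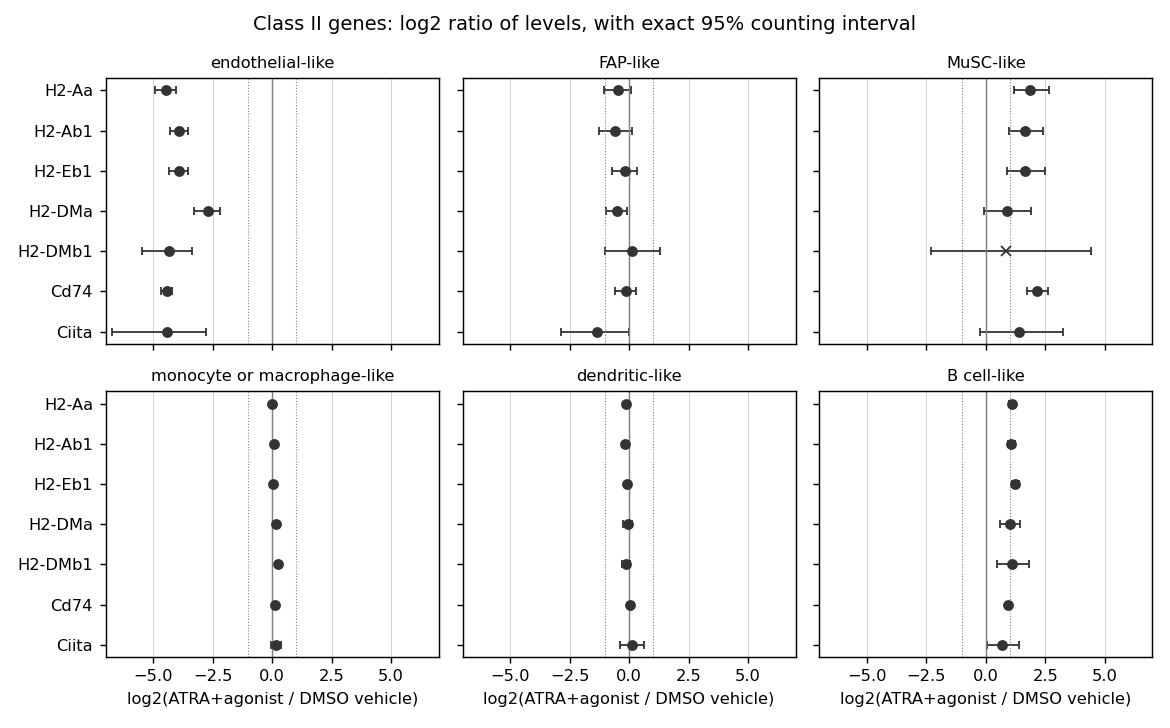
Log2 ratio of the level after ATRA+agonist over DMSO vehicle for each of the 7 genes in 6 cell classes, with exact 95% counting intervals, dotted lines at 2-fold, and a cross for a gene with under 10 UMIs. All 7 points lie left of 2-fold in endothelial-like cells, between -4.46 and -2.71, and all 7 lie within 2-fold in monocyte or macrophage-like and in dendritic-like cells.

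The share of cells differed as the level did. A UMI of any of the 7 genes was found in 9.02% of endothelial-like cells (7.91% to 10.2%) after ATRA+agonist and in 30.6% (28.6% to 32.5%) after DMSO vehicle, at medians of 2838 and 3270.5 UMIs per cell. Without thinning, FAP-like cells had 19.7% and 15.5% at their higher depth. With each cell thinned to 1000 UMIs, leaving out 477 and 225 shallower cells, the shares were 3.74% (2.94% to 4.68%) and 22.1% (20.2% to 23.9%). The ATRA+agonist share was close to that of FAP-like cells given above, and the DMSO vehicle share was far above it. By level, ATRA+agonist endothelial-like cells were still above FAP-like cells of that library, at 55.1 against 23.6 CPM. The intervals of these levels, given above, did not overlap.

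Within a cell the genes came together in the DMSO vehicle library, and less so in the ATRA+agonist library. At least 3 of the 7 genes were detected in 328 of 2202 DMSO vehicle cells (14.9%, 13.4% to 16.5%), but in 8 of 2429 ATRA+agonist cells (0.329%, 0.142% to 0.648%). All 7 were detected in 8 DMSO vehicle cells and in 0 ATRA+agonist cells, and that 0 allows up to 3 cells. Among DMSO vehicle cells with a Cd74 UMI, H2-Aa was found in 60.1% (55.6% to 64.5%), against 3.44% (2.63% to 4.41%) of those without. For Ciita the shares were 9.26% (6.83% to 12.2%) and 0.524% (0.240% to 0.993%). Of the 93 ATRA+agonist cells with a Cd74 UMI, 7.53% (3.08% to 14.9%) had H2-Aa, against 1.20% (0.798% to 1.73%) of those without. None of the 93 had a Ciita UMI. The 328 DMSO vehicle cells were also deeper, at a median of 4151 UMIs, than those with fewer of the genes, at 3152.5. The class II UMIs were held by few cells, as the highest 10% of DMSO vehicle cells carried 82.0% of them and the highest cell had 131.

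**Figure D3:**
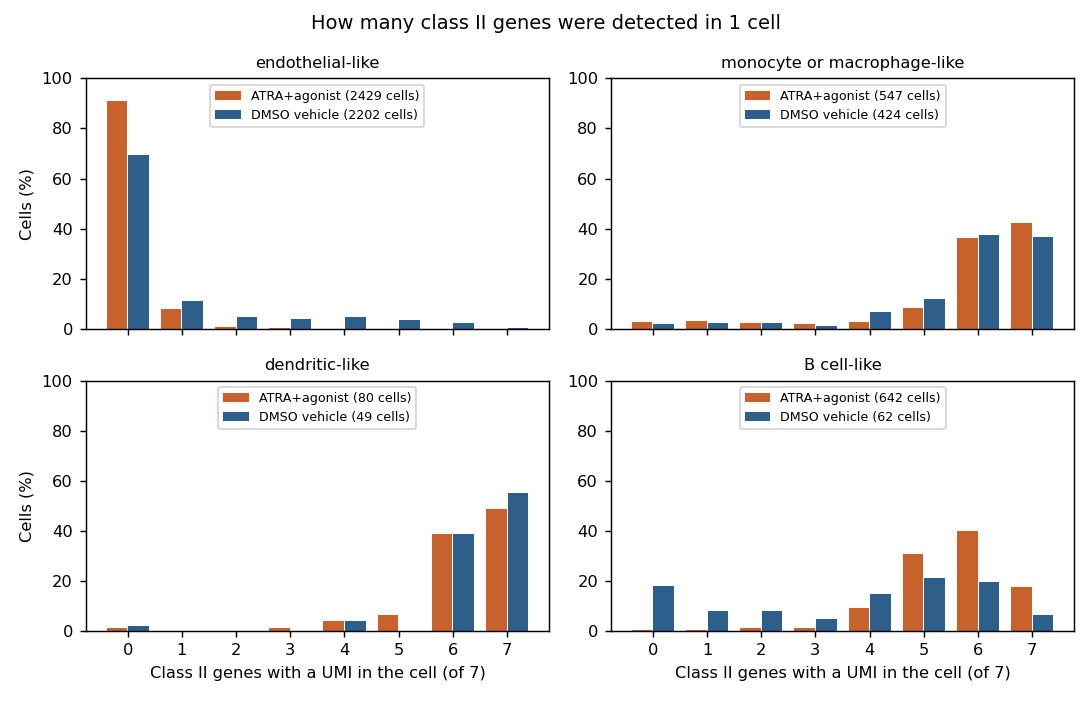
Percent of cells (bars from 0) by the number of the 7 genes with a UMI in the cell, in 4 cell classes and both libraries. Most endothelial-like cells had none, 90.98% after ATRA+agonist and 69.4% after DMSO vehicle, while most macrophage-like and dendritic-like cells had 6 or 7 in both libraries.

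Markers of immune cells were set beside these values. Of 21 immune cell genes (Ptprc, C1qa, Cd79a, Cd3e and others), 15 were detected in endothelial-like cells after ATRA+agonist and 12 after DMSO vehicle, at summed levels of 32.8 CPM (28.7 to 37.3) and 35.9 CPM (31.8 to 40.5). Cd79b, Cd209a, Itgax, Cd3e and Trac were at 0 in both libraries. In the 328 DMSO vehicle cells with at least 3 class II genes the same list had 31.1 CPM (22.7 to 41.7), and in the cells with fewer it had 37.1 CPM (32.4 to 42.3). By share of cells the order was the other way, with a UMI of the list in 12.8% and 8.70%, at the medians given above. The 9 endothelial markers, such as Pecam1, Cdh5 and Kdr, were all detected in those 328 cells and summed to 7420 CPM, against 9100 CPM in the other endothelial-like cells of that library. In the 8 ATRA+agonist cells with at least 3 class II genes the immune list had 120 CPM (39.1 to 281) from 5 UMIs. The other ATRA+agonist endothelial-like cells had 32.3 CPM (28.2 to 36.8). Over endothelial-like cells with no immune marker UMI, the class II genes had 52.9 CPM after ATRA+agonist and 971 CPM after DMSO vehicle.

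The endothelial-like clusters were filled unequally by the libraries. The largest in both, led by Aqp1 and Kdr, held 1585 cells after ATRA+agonist and 839 after DMSO vehicle, and the cluster led by the interferon-induced genes Cd274 and Gbp4 held 59 and 794. The class II genes were lower after ATRA+agonist within each of the 4 endothelial-like clusters. In the cluster of Aqp1 and Kdr the sum was 33.9 CPM (29.3 to 39.1) after ATRA+agonist and 348 CPM (327 to 369) after DMSO vehicle, a log2 ratio of -3.36 (-3.59 to -3.13). In the cluster led by Rbp7 and Fabp4, genes of retinol binding and fatty acid uptake, in which cells were shallow (medians of 778.5 and 897.5 UMIs), it was 78.5 CPM (57.8 to 104) and 1918 CPM (1784 to 2060), a log2 ratio of -4.61 (-5.06 to -4.19).

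The cluster of Cd274 and Gbp4 did not have the highest level. Its sum was 46.2 CPM (22.1 to 84.9, 10 UMIs) after ATRA+agonist and 760 CPM (729 to 791) after DMSO vehicle, a log2 ratio of -4.04 (-5.10 to -3.16), or -5.27 (-7.15 to -3.91) without the highest cell of each library, which leaves 4 UMIs after ATRA+agonist. The cluster led by Sema3g and Gja5, genes of arterial endothelium, had 215 CPM (181 to 253) and 3226 CPM (3120 to 3335), a log2 ratio of -3.91 (-4.16 to -3.67). In it 1 ATRA+agonist cell held 80 of 144 UMIs, and without the highest cell of each library the levels were 96.3 and 3139 CPM (log2 ratio -5.03). A small unnamed cluster led by Ccl21a, Selp and Lrg1, with 23 and 67 cells, had 88.2 CPM (42.3 to 162) and 4742 CPM (4550 to 4939), and 19.7 and 4492 CPM without the highest cell of each library, which held 8 of 10 and 177 of 2315 UMIs. In its DMSO vehicle part 44 cells carried venous and 7 carried lymphatic genes, and in its ATRA+agonist part 5 and 16 did, so the parts are not alike.

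To set vessel types side by side without clusters, cells were gated by at least 2 detected genes of an arterial list or of a venous list (Nr2f2, Vwf, Selp, Ackr1 and Lrg1), after lymphatic cells had been set apart. The cluster of Ccl21a was included, and 8 and 13 cells in both gates, with 1 and 573 class II UMIs, were left out. Of the venous-gated, arterial-gated and neither-gated cells, the venous-gated cells differed most. They had 10 class II UMIs in 74 cells after ATRA+agonist (31.6 CPM, 15.1 to 58.1) and 2498 in 122 cells after DMSO vehicle (3725 CPM, 3581 to 3874), a log2 ratio of -6.88 (-7.94 to -6.00). H2-Aa was at 0 UMIs in the ATRA+agonist part, which allows up to 9.47 CPM, and at 555 CPM in the DMSO vehicle part. The cluster of Ccl21a gave 5 of the ATRA+agonist and 44 of the DMSO vehicle venous-gated cells, so these parts are not alike in makeup.

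Arterial-gated cells had 138 CPM (117 to 161) in 261 cells after ATRA+agonist and 1978 CPM (1914 to 2043) in 403 cells after DMSO vehicle, a log2 ratio of -3.85 (-4.08 to -3.62). In them 1 ATRA+agonist cell held 80 of the 160 UMIs, and without the highest cell of each library the levels were 69.2 and 1919 CPM, a log2 ratio of -4.79 (-5.13 to -4.47). Cells in neither gate had 39.6 CPM (34.6 to 45.2) and 600 CPM (579 to 621), a log2 ratio of -3.92 (-4.12 to -3.72). At least 3 of the 7 genes were found in 49.2% of venous-gated (40.02% to 58.4%), 27.8% of arterial-gated (23.5% to 32.4%) and 11.0% of the other DMSO vehicle cells (9.59% to 12.6%), at medians of 4921.5, 4227 and 3060 UMIs per cell. Thinned to 1000 UMIs, the shares kept this order, at 31.7%, 14.3% and 5.05%. The few lymphatic-gated cells had 9 UMIs in 16 cells and 2 UMIs in 9 cells.

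**Figure D4:**
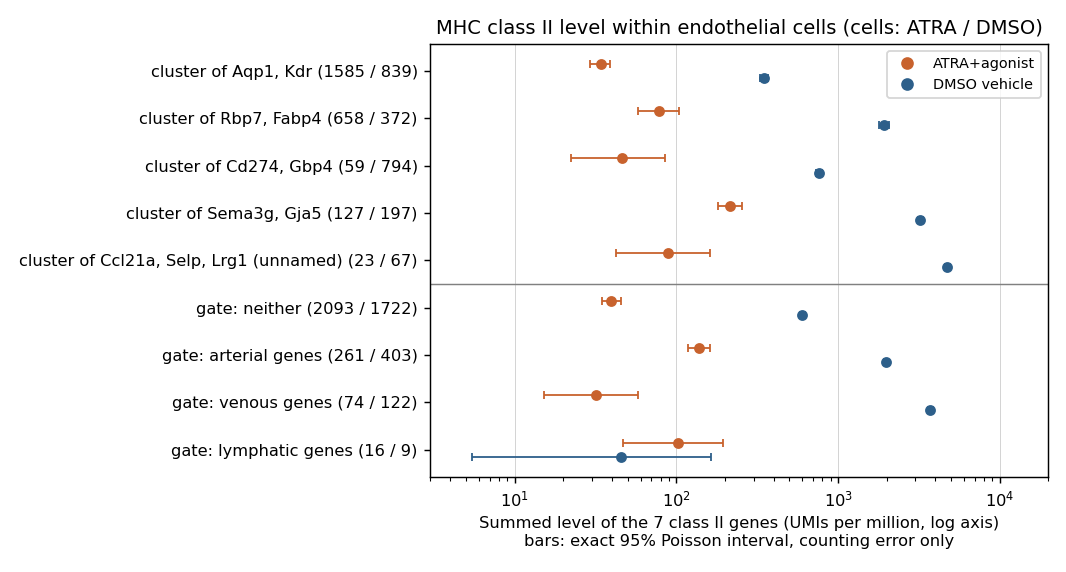
Summed level of the 7 genes (CPM, log axis) in endothelial clusters (above the line) and in vessel gates (below), with exact 95% Poisson intervals. Among clusters the DMSO vehicle points run from 348 CPM (Aqp1 and Kdr) to 4742 CPM (Ccl21a), and each lies right of its ATRA+agonist point except in lymphatic-gated cells.

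Other genes of the pathway were counted in the same endothelial-like cells by lists. Of 13 other class II and loading genes, 10 had at least 10 UMIs, 3 were at least 2-fold lower after ATRA+agonist and none was 2-fold higher, where 3.6% of all genes were lower and 3.96% higher. The 3 were H2-DMb2, H2-Eb2 and H2-Ob, all class II genes, with 1, 0 and 6 UMIs after ATRA+agonist and 27, 10 and 23 after DMSO vehicle. The proteases that cut antigens and the invariant chain differed little, as Ctsl had 481 and 497 CPM, Ctsb 161 and 147 CPM, and Lgmn 17.7 and 17.5 CPM. Of the 13, H2-Ea was not found under that symbol and has no values here.

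Single genes of the promoter complex and of interferon-gamma signaling are given as values, with no count over that list. Socs1, a feedback inhibitor, had 153 and 242 CPM (log2 ratio -0.66). The promoter-binding subunits Rfx5 (5.19 and 5.08 CPM) and Creb1 (88.7 and 90.8 CPM) and the receptor chain Ifngr1 (175 and 169 CPM) stayed within 2-fold. Among the named classes the ligand Ifng was found almost only in T cell or NK-like cells, with 198 UMIs in 310 cells after ATRA+agonist (94.9 CPM) and 163 UMIs in 96 cells after DMSO vehicle (254 CPM), a log2 ratio of -1.42 (-1.73 to -1.11).

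Of 6 genes of costimulation, 5 were measured. Cd274, the checkpoint ligand PD-L1, had 198 and 891 CPM (log2 ratio -2.17, -2.25 to -2.08), while Icosl was at least 2-fold higher on 12 and 6 UMIs and Cd40 had 14.2 and 15.1 CPM. Of the ligands that activate CD28 on T cells, Cd80 had 4 and 7 UMIs and Cd86 had 1 in each library. The 9 class I genes, which present peptides from the cytosol, had a median log2 ratio of -0.93, and 4 of them were at least 2-fold lower, beside the 3.6% of all genes. Tap1, a peptide transporter, had 62.5 and 236 CPM (log2 ratio -1.92), and Psmb9, an immunoproteasome subunit, 132 and 307 CPM (log2 ratio -1.21). For the 7 class II genes the median was -4.34.

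Within the DMSO vehicle library, endothelial-like cells with at least 3 class II genes were set beside those with fewer, as a description, since the genes themselves chose the cells. H2-DMb2 had 14.5 and 0.993 CPM, and Nlrc5, the transactivator of class I genes, 230 and 136 CPM (log2 ratio 0.77, 0.58 to 0.95). Cd274 had 1031 and 857 CPM (log2 ratio 0.27, 0.18 to 0.35), and Ifngr1 had 169 and 168 CPM. The difference of Cd274 was far smaller than that between the libraries.

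In monocyte or macrophage-like cells, the tissue phagocytes, no class II gene differed by 2-fold (0 of 7, where 4.41% of 12759 genes were at least 2-fold lower after ATRA+agonist and 3.13% were higher). The sum in 547 and 424 cells gave a log2 ratio of 0.06 (0.05 to 0.07). H2-Aa had 6311 CPM (37255 UMIs) after ATRA+agonist and 6430 CPM (26501 UMIs) after DMSO vehicle, and Cd74 had 16428 and 15350 CPM. Ciita had 92.7 and 83.5 CPM, a log2 ratio of 0.15 (-0.05 to 0.35), and H2-DMb1, with the largest ratio of the 7, had 559 and 475 CPM (log2 ratio 0.24, 0.16 to 0.32). With no doublet removal the log2 ratio of the sum was 0.31, and with cells assigned by their own markers it was 0.32.

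Macrophage-like cells with a UMI of Lyve1 or Folr2, genes of resident macrophages, had lower levels than the others in both libraries, at 19874 CPM in 149 cells and 25204 CPM in 167 cells, against 39774 CPM in 398 cells and 38306 CPM in 257 cells. In the former the log2 ratio was -0.34 (-0.36 to -0.32), and in the latter 0.05 (0.04 to 0.07). Cells with a Cd209a UMI, a gene of monocyte-derived dendritic cells, had the highest sums, 48338 CPM in 112 cells and 46721 CPM in 74 cells. Ciita in these was 110 and 81.9 CPM (log2 ratio 0.43, 0.02 to 0.85).

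Dendritic-like cells, marked by Xcr1, Clec9a and Flt3, numbered 80 and 49. Again 0 of 7 genes differed by 2-fold (4.58% of 8715 genes were at least 2-fold lower and 9.79% were higher), and the log2 ratio of the sum was -0.05 (-0.07 to -0.02). H2-Ab1 had 5479 and 6155 CPM (log2 ratio -0.17, -0.23 to -0.11), and Cd74 16852 and 16364 CPM (log2 ratio 0.04, 0.01 to 0.08). All 7 genes were detected in 48.75% of these cells after ATRA+agonist and in 55.1% after DMSO vehicle. The sign of this small ratio changed with the doublet rate, the mitochondrial limit and the minimum of genes, with log2 ratios between 0.03 and 0.04. The cells called dendritic-like changed too. They numbered 150 and 86 at a doublet rate of 15%, and 334 and 206 at a minimum of 500 genes.

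In B cell-like cells, which present antigen to T cells and make antibody, the summed level was higher after ATRA+agonist (log2 ratio 0.998, 0.95 to 1.05). They were 642 and 62 cells, and 4 of 7 genes were at least 2-fold higher, where 14.4% of 10806 genes were. H2-Eb1 had 2604 CPM (10822 UMIs) and 1116 CPM (414 UMIs), a log2 ratio of 1.22 (1.08 to 1.37), and H2-Aa had 2883 and 1342 CPM (log2 ratio 1.10, 0.97 to 1.24). Cd74 had 10528 and 5599 CPM (log2 ratio 0.91, 0.85 to 0.98), and Ciita 86.2 and 53.9 CPM (log2 ratio 0.68, 0.03 to 1.41).

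The makeup of this class differed between the libraries. Ms4a1, which encodes CD20 of mature B cells, was found in 88.8% of the cells after ATRA+agonist and 61.3% after DMSO vehicle, and immunoglobulin genes took 4.30% and 9.59% of the UMIs. A cluster of 83 cells led by Cacna1e, Il5ra and Mzb1 held ATRA+agonist cells only. Among cells with a Ms4a1 UMI (570 and 38), the sums were 18946 and 13930 CPM, a log2 ratio of 0.44 (0.39 to 0.50). Among cells without one (72 and 24) they were 13277 and 2958 CPM, a log2 ratio of 2.17 (2.03 to 2.30). At a doublet rate of 15%, 4 DMSO vehicle cells remained and the log2 ratio was 1.70.

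Of 12 measured loading genes in B cell-like cells, 2 were at least 2-fold higher and 1 was lower, where 14.4% and 12.5% of all genes were, and the median log2 ratio was 0.32 against 1.07 for the 7 genes. H2-DMb2 had 307 and 121 CPM (log2 ratio 1.34, 0.91 to 1.80) and H2-Oa, a chain of the H2-DM inhibitor H2-O, 193 and 80.8 CPM (log2 ratio 1.25, 0.73 to 1.83). The lower one was the protease Ctsb (35.4 and 75.4 CPM). Cd86 had 811 and 229 CPM (log2 ratio 1.82, 1.51 to 2.15) and Cd80 had 225 and 3 UMIs. Over the 9 class I genes the median was -0.03.

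FAP-like cells, the connective tissue progenitors (1341 and 1655 cells), had little class II RNA. Of the 7 genes 1, Ciita, was at least 2-fold lower after ATRA+agonist (5.47% of 16704 genes were), with 7 and 18 UMIs (log2 ratio -1.34, -2.84 to -0.02). The log2 ratio of the sum was -0.37 (-0.59 to -0.16), but 63 of the 420 DMSO vehicle UMIs came from 1 cell. Without cells that had an immune marker UMI it was -0.08 (-0.34 to 0.18), with cells assigned by their own markers it was -0.0031, and with no doublet removal it was -1.46.

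Muscle stem cell (MuSC)-like cells had 446 class II UMIs in 415 cells after ATRA+agonist (133 CPM, 121 to 146) and 148 in 530 cells after DMSO vehicle (37.4 CPM, 31.6 to 43.9), a log2 ratio of 1.83 (1.56 to 2.11). Of the 6 genes with at least 10 UMIs, 5 were at least 2-fold higher, where 4.6% of 13179 genes were. Few cells carried these UMIs, 7 cells with at least 3 of the genes after ATRA+agonist and 2 after DMSO vehicle, and the highest cell had 144 and 84. In those 7 cells the immune markers summed to 478 CPM (341 to 651), against 31.6 CPM (25.8 to 38.3) in the other ATRA+agonist MuSC-like cells. In the DMSO vehicle library it was the reverse, as the 2 cells had no immune marker UMI and the other MuSC-like cells had 140 CPM (129 to 153). Without cells that had an immune marker UMI, the log2 ratio turned to -0.68 (-1.11 to -0.26), at 25.9 and 41.4 CPM. That sign rested on 1 DMSO vehicle cell of 84 UMIs, since without the highest cell of each library 63 and 48 UMIs remained in the immune-marker-free cells and the log2 ratio was 0.56 (-0.00104 to 1.14). The 1000-UMI shares with any of the genes, 3.89% (2.24% to 6.25%) and 1.89% (0.908% to 3.44%), were near those of FAP-like cells.

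T cell or NK-like cells had 757 class II UMIs in 310 cells (363 CPM) and 49 in 96 cells (76.3 CPM), with 415 of the 757 in 1 cell. Any gene was found in 7.82% (5.07% to 11.4%) and 7.37% (3.01% to 14.6%) of the cells thinned to 1000 UMIs.

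The 7 genes did not share 1 fixed ratio across cell classes. UMIs of this 3-prime assay mark transcript ends and are not scaled by length, so each gene is compared across cells and not with the other genes. Cd74 was 47.2% and 45.9% of class II UMIs in macrophage-like cells, 57.3% (57.0% to 57.7%) and 60.9% (59.2% to 62.5%) in B cell-like cells and 53.1% (52.0% to 54.3%) in DMSO vehicle endothelial-like cells. H2-DMa was 1.68% and 1.56% in macrophage-like cells, but 8.65% (6.07% to 11.9%) and 3.10% (2.72% to 3.51%) in endothelial-like cells, 23.8% (19.2% to 28.8%) and 26.4% (22.3% to 30.9%) in FAP-like cells and 32.8% (21.3% to 46.0%) in DMSO vehicle tenocyte-like cells. H2-Eb1 was 15.8% and 16.4% in macrophage-like cells, and 44.1% (27.2% to 62.1%) and 36.2% (24.99% to 48.7%) in smooth muscle or pericyte-like cells, from 15 and 25 UMIs. H2-DMa and H2-Eb1 are 2 of the genes with an overlapping annotation on the other strand, and whether this bears on their shares was not tested.

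**Figure D5:**
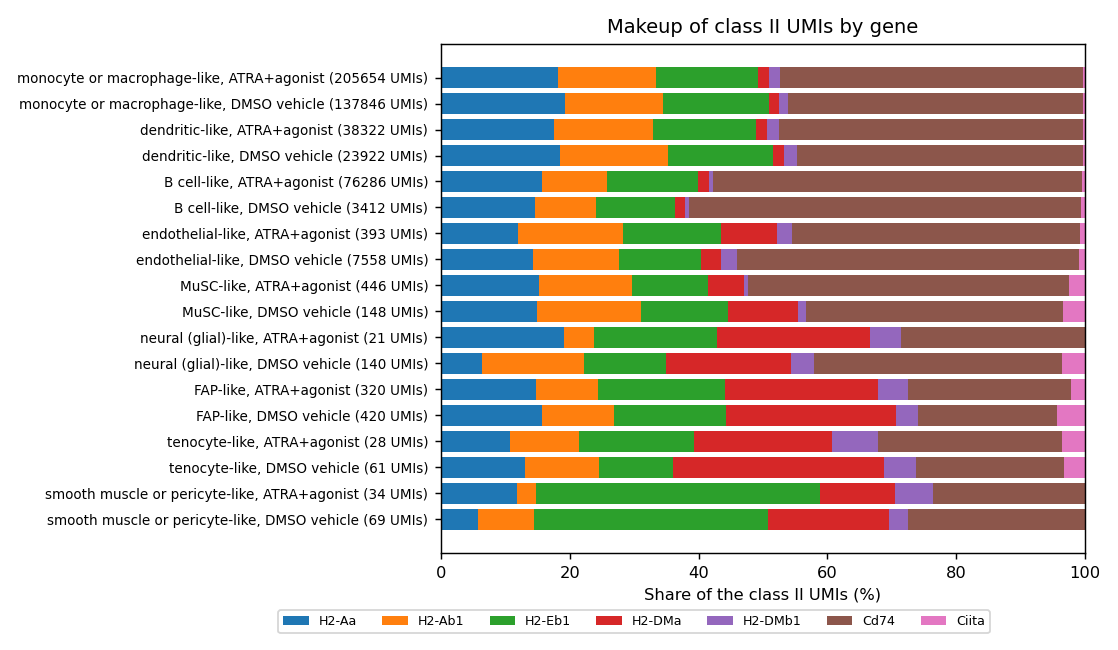
Share of the class II UMIs taken by each of the 7 genes in 9 cell classes and both libraries, with the number of UMIs beside each bar. H2-DMa is 1.56% to 1.73% in the macrophage-like and dendritic-like bars and 23.8% to 26.4% in the FAP-like bars, and H2-Eb1 is largest in the smooth muscle or pericyte-like bars.

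Over 21 profiles of cell class and library with at least 50 cells, the genes outside the lists whose log2(CPM + 10) was most correlated with that of the summed class II genes were Nrros (Pearson r = 0.953), Ly86 (0.952), Ncf1 (0.947), Gm6377 (0.943) and Themis2 (0.943). The profiles share libraries, and immune and non-immune classes lie far apart, so this is a description. None of the 5 was higher in DMSO vehicle than in ATRA+agonist endothelial-like cells by the amounts of the class II genes. Nrros had 41.8 CPM after ATRA+agonist and 30.05 CPM after DMSO vehicle in these cells, and Ly86 0.140 and 0.134 CPM.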

How the data were processed

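Hindlimb muscle cells of 2 pooled mice per group were measured with the 10x Genomics 3-prime assay. The authors aligned the reads to mm10 (GRCm38) with Cell Ranger 7.2.0, and the matrices they deposited give unnormalized UMI counts for every gene in each called cell. The annotation release is not given in the sources used here, and gene positions are those of GENCODE M21 for the same identifiers.

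Cells with 300 to 5000 genes, under 20% mitochondrial and under 0.25% Hbb- UMIs were kept. Doublets were scored per library against artificial doublets (20% of merged cells) and the highest 7.5% removed, a rebuilt form of the procedure the authors used. The merged cells were clustered on 2000 variable genes, 30 principal components and 20 neighbors by Louvain at a resolution of 0.8, with the 7 genes, the pathway lists and interferon-response genes left out. A cluster was named where at least 3 markers of a class reached 10 UMIs and were 2-fold or more above other cells, unless markers of another class also led it. Python 3.11.15, scipy 1.17.1, scikit-learn 1.9.0 and igraph 0.11.9 were used.

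UMIs were summed per library and class. Ratios have exact intervals conditional on the summed count, and shares exact Clopper-Pearson 95% intervals. The interval method was tested only on simulated Poisson and binomial counts. These leave out the clustering of UMIs in single cells, so the test cannot show how well the intervals cover in these data. For a count of 0 the upper limit was set at 3 counts. A member of a list counted where it had at least 10 UMIs over both libraries, and was called at 2-fold. The named genes were the 7 genes in classes with 50 cells or more in each library and in dendritic-like cells (49 in 1 library), list genes with at least 50 UMIs among the largest differences, and the 5 genes most like the 7 with at least 200 UMIs. List genes under 50 UMIs, and list genes with small differences, were named after their values were seen. The genes and lists were chosen with earlier results of these data known. Alternatives were doublet rates, a mitochondrial limit of 10%, a minimum of 500 genes, resolutions of 0.4 and 1.6, clustering with the outcome genes, assignment of cells by their own markers, thinning to 1000 UMIs, median-of-ratios scaling and cells without immune marker UMIs. Those on Ms4a1, immunoglobulin, Lyve1 or Folr2, the cluster of Ccl21a, the highest cell (also within cells without immune marker UMIs) and shared barcodes were chosen after seeing the data. A gene of the interferon-gamma list is not reported here.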

Additional observations from a re-analysis of the deposited data

Results flagged for a closer look

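The ratio of the summed class II level between the libraries went opposite ways in different cell classes, with counting intervals on either side of 0. It was -4.20 on the log2 scale in endothelial-like, -0.37 in FAP-like and -0.045 in dendritic-like cells, and 1.83 in MuSC-like, 0.998 in B cell-like and 0.059 in monocyte or macrophage-like cells. These intervals do not fix the sign. Under other processing, given below, it changed in dendritic-like and in MuSC-like cells. The FAP-like ratio was -0.083 (-0.34 to 0.18) without cells that had an immune marker UMI. The difference between the classes was not tested, as each group is 1 library.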

How the results depend on the processing

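In endothelial-like cells the log2 ratio of the summed class II level stayed between -4.80 and -4.10 under 15 alternatives. It was -4.48 with the cluster of Ccl21a added, -4.50 without the highest cell of each library, -4.55 without that cell and without immune marker UMIs, -4.80 at a doublet rate of 15%, -4.73 at a mitochondrial limit of 10%, and -4.48 both at a resolution of 0.4 and with the outcome genes kept for clustering. In monocyte or macrophage-like cells it was 0.048 both thinned and with median-of-ratios scaling, 0.31 if doublets were not removed, 0.038 at a doublet rate of 15%, 0.043 at a minimum of 500 genes, and 0.32 with cells assigned by their own markers. In dendritic-like cells it was -0.095 thinned and -0.0027 if doublets were not removed, and it changed sign to 0.036 at a doublet rate of 15%, 0.028 at a mitochondrial limit of 10% and 0.027 at a minimum of 500 genes. Dendritic-like cells then numbered 303 and 181 if doublets were not removed, and 334 and 206 at a minimum of 500 genes. No dendritic-like cluster was found at a resolution of 0.4 or with the outcome genes kept. In B cell-like cells it was 1.06 thinned, 1.12 with median-of-ratios scaling, 0.44 in cells with a Ms4a1 UMI, 0.92 without immunoglobulin UMIs, 0.87 if doublets were not removed, 1.70 at a doublet rate of 15%, 0.90 at a mitochondrial limit of 10%, 1.21 at a resolution of 1.6 and 0.93 with cells assigned by their own markers. In FAP-like cells it was -0.083 without immune marker UMIs, -0.059 if the highest cell of each library was left out as well, -0.092 thinned, -1.46 if doublets were not removed and -0.0031 with cells assigned by their own markers. In MuSC-like cells it changed sign to -0.68 without immune marker UMIs, but was 0.56 if the highest cell of each library was left out as well, and was 2.48 without the highest cell, 1.47 at a doublet rate of 15%, 1.52 at a mitochondrial limit of 10%, 0.71 at a minimum of 500 genes and 1.26 with cells assigned by their own markers. The cause of these shifts was not tested. With all genes that had a UMI, 11.5% were at least 2-fold lower in endothelial-like cells, against 3.60%. Depth limits Ciita and every class II gene in cells outside the immune and endothelial classes. The small number of cells limits the B cell-like (62) and dendritic-like (49) classes of the DMSO vehicle library.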

Other observations

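A cluster left unnamed because it was led by genes of mast cells (Cma1, Mcpt4, Cpa3 and Tpsb2) together with genes of perineurial cells (Sfrp5, Cldn1 and Lypd2) also held class II RNA, at 5570 CPM (5326 to 5823) in 157 cells after ATRA+agonist and 1837 CPM (1720 to 1960) in 156 cells after DMSO vehicle. At least 3 of the 7 genes were found in 26.8% (20.01% to 34.4%) and 12.8% (8.01% to 19.1%) of its cells, and the highest cell had 283 and 169 class II UMIs. Without cells that had a UMI of an immune marker the levels were 334 CPM and 501 CPM. A shallow unnamed cluster led by Dach1 and Ccdc85a had 3 class II UMIs in 127 cells after ATRA+agonist (16.9 CPM, 3.48 to 49.3) and 133 in 225 cells after DMSO vehicle (289 CPM, 242 to 343).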
